A study of Mus musculus with 32 samples.

Results

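Hox genes encode homeodomain transcription factors that tell a cell where it lies along the axis from head to tail. In mammals they stand in 4 clusters, Hoxa, Hoxb, Hoxc and Hoxd, and within a cluster the low-numbered genes are used nearer the head and the high-numbered ones nearer the tail. Genes with the same number in different clusters descend from 1 ancestor and are called paralogues. Stromal cells and fibroblasts are known to keep a part of the Hox code of the body site they came from. Silent parts of the clusters are typically held by Polycomb proteins, and DNA methylation is known at CG-rich Hox promoters in some tissues and tumours.

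The members described here are all rows of the deposited table whose mouse symbol is Hoxa, Hoxb, Hoxc or Hoxd followed by a number only. They were 33 of 21829 mouse genes, with 9 in Hoxa, 10 in Hoxb, 9 in Hoxc and 5 in Hoxd. The other 6 of the 39 Hox genes in the annotation, Hoxa11, Hoxa13, Hoxd1, Hoxd4, Hoxd12 and Hoxd13, had no row in the deposited table. They could not be analysed here. Antisense and opposite-strand transcripts of the clusters are not members.

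The study compared EL08-1D2, a mouse mesenchymal stromal line from embryonic liver that supports blood progenitors, without azacitidine (16 libraries) and with azacitidine (16 libraries). Once built into DNA, azacitidine holds DNA methyltransferases fast, so that methylation is lost as cells divide. All libraries are of this 1 line, and the labels used here give neither dose nor duration, nor whether libraries of a group came from separate cultures. The p-values therefore rest on the spread from library to library, and this may be technical. In this bulk RNA, fewer expressing cells and less RNA per cell cannot be told apart.

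The table counts unique molecular identifiers (UMIs), tags that count each cDNA molecule once. Libraries held 818619 to 3210801 UMIs without and 1226861 to 5039721 with azacitidine. Levels below are UMI counts scaled to a common library size after TMM normalisation (CPM). Over 6030 genes other than Hox, 5 libraries stood apart from the other 27, namely numbers 1 and 2 without and 1, 2 and 4 with azacitidine: on the leading principal component, which held 43.7% of the variance within groups, they lay between 0.26 and 0.42 and the others between -0.21 and 0.11. They held between 2455232 and 5039721 UMIs, while the others had a median of 1634734 and a highest total of 4218313. The label of a stromal line was checked on markers: the 8 stromal markers summed to between 5285.0 and 7676.5 CPM without and between 4427.0 and 7519.7 with azacitidine, Vcam1 rose and Col1a1 and Col1a2 fell (none of them called with spike-in scaling), and Thy1 had 0 and 26 UMIs. Of 6 blood markers Hbb-bs was at 0 throughout, Ptprc went from 1 UMI to 4 with the drug, and Spi1 from 0 to 1, while the other 3 had more: Cd34 with 125 and 544 UMIs, Cd68 with 216 and 621 and Itgam with 143 and 161.

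Promoter windows of 4 members are shown. They cover the member that fell (Hoxa2) and more abundant genes of its cluster with no call (Hoxa7 and Hoxa9). The last is a member at 0 UMIs without the drug (Hoxb8). All are RefSeq windows of GRCm38.p6, 250 bases before to 50 bases after a RefSeq start, 5′ to 3′ on the gene's strand. The Hoxa7 and Hoxa9 windows lie inside the annotated genes, whose outermost starts are at 52221854 and 52231089. Their CG counts are therefore not those of the outermost starts. Capitals mark CG, the dinucleotide that DNA methyltransferases act on.
Hoxa2, chr6:52164782-52165081, minus strand: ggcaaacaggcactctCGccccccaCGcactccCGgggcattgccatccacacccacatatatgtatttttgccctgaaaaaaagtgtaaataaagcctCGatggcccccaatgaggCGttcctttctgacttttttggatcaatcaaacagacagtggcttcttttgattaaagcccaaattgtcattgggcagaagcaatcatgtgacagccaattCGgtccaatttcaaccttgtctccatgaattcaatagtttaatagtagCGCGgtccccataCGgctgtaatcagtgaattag
Hoxa7, chr6:52218524-52218823, minus strand: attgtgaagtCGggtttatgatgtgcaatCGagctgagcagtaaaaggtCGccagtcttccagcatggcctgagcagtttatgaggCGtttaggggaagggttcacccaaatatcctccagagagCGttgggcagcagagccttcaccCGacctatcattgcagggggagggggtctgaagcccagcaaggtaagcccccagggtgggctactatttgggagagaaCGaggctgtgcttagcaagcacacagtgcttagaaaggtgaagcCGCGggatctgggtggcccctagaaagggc
Hoxa9, chr6:52227321-52227620, minus strand: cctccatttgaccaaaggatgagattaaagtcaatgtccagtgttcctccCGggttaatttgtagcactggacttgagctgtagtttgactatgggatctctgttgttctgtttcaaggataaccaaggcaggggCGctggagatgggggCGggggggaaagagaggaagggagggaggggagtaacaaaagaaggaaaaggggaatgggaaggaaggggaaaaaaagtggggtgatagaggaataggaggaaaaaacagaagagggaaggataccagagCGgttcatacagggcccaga
Hoxb8, chr11:96281655-96281954, plus strand: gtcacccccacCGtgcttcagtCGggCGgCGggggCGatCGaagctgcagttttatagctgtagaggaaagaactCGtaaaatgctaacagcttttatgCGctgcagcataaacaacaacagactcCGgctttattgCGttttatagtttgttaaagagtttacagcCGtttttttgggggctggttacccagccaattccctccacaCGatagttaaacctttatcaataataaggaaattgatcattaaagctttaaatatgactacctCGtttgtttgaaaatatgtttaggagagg

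The windows of Hoxa2 and Hoxa7 both held 9 CG, that of Hoxa9 held 4 and that of Hoxb8 held 13. RefSeq windows were found for 16 of the 33 members, 18 windows in all, and the median over them was 13.5 CG against 7 over all 32544 windows. Members without a window included Hoxc5 and Hoxc10, which rose with the drug, and the abundant Hoxb2 and Hoxb7. The range over these windows was from 4 CG (Hoxa9, inside the annotated gene, and 1 of the starts of Hoxd11) to 29 CG (Hoxa5). Of the 18 windows 15 held more CG than the median of all. The letters TGATNNAT, bound by pairs of PBX and HOX proteins, were searched on both strands and found in 4 of the 18 windows (Hoxa2, Hoxb1, Hoxb8 and 1 of Hoxd11) and in 8.79% of all windows. TGACAG, the letters bound by MEIS proteins, was found in 2 of 18 (Hoxa2 and Hoxa3) and in 19.1% of all windows. A match is a description of these letters and not a binding site.

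EL08-1D2 carried a broad Hox code that reached from anterior to posterior genes, with low levels of the 5 measured Hoxd genes. Of the 33 members 19 had a UMI in every one of the 32 libraries, and 31 had at least 1 UMI in both groups. The members together took between 187.4 and 319.4 CPM without azacitidine (median 216.6) and between 199.6 and 362.3 with it (median 226.0). Most of this came from a few genes. Hoxb7, a central gene expressed in trunk mesoderm, stood at 49.7 ± 5.8 CPM (SD) without and 52.5 ± 6.5 with azacitidine. Hoxa7, its paralogue, stood at 31.0 ± 4.6 and 30.6 ± 7.4. The antisense gene Hoxaas3 covers 20.4% of the exon bases of Hoxa7 on the opposite strand. Strand use in counting is not given in the sources used here. Hoxb2, an anterior gene of the hindbrain, had a median of 28.1 and 26.3.

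Within a cluster, abundant and nearly silent genes lay side by side. Hoxb7 had 1330 UMIs in the 16 libraries without azacitidine, while its neighbour Hoxb8 had 0, which allows up to 0.11 CPM over those libraries (3 counts of their summed total, counting error only). Hoxb8 had 3 UMIs in 2 libraries with azacitidine. Hoxb2 had 899 UMIs without the drug, while Hoxb1 had 1 and Hoxb3 had 5. The same alternation was seen in Hoxa, where Hoxa6 had 15 UMIs between Hoxa5 with 149 and Hoxa7 with 839. The low count of Hoxb3 has a limit. An antisense gene, Hoxb3os, covers 52.9% of the exon bases of Hoxb3 on the opposite strand. How such shared bases were counted is not given in the sources used here. Divided by the exon length of each gene, to compare genes with each other, the mean level without azacitidine was 32.21 CPM per kb for Hoxb7, 10.78 for Hoxa7 and 8.49 for Hoxb2 and Hoxc10. UMI counts do not grow with length as whole reads do, so this scale may undervalue long genes.

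The Hoxc cluster was read from Hoxc4 to Hoxc13, with its highest levels at Hoxc9 and Hoxc10. Hoxc10, a posterior gene of the lumbar region and hindlimb, had 432 UMIs without azacitidine, Hoxc9 had 349, Hoxc11 had 67, Hoxc12 had 9 and Hoxc13 had 32. In Hoxb the most posterior gene, Hoxb13, known from the tail bud and prostate, had UMIs in every library, at 5.2 ± 1.7 CPM without and 5.2 ± 1.6 with azacitidine (-0.015, SE 0.175, edgeR without the filter, adjusted p = 0.98). The 5 measured Hoxd genes together reached a median of 4.5 CPM in both groups, and Hoxd8 gave 110 of their 127 UMIs without and 125 of 182 with azacitidine. The cluster was not silent as a whole. Its antisense gene Hoxd3os1, which is not a member, had 150 UMIs without and 208 with azacitidine. Of the exon bases of Hoxd3, 53.1% are shared with Gm28230 on the same strand. Among the genes used in limb patterning, Hoxd9 went from 6 UMIs to 21 with azacitidine, Hoxd10 from 2 to 5 and Hoxd11 from 0 to 1.

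**Figure D1:**
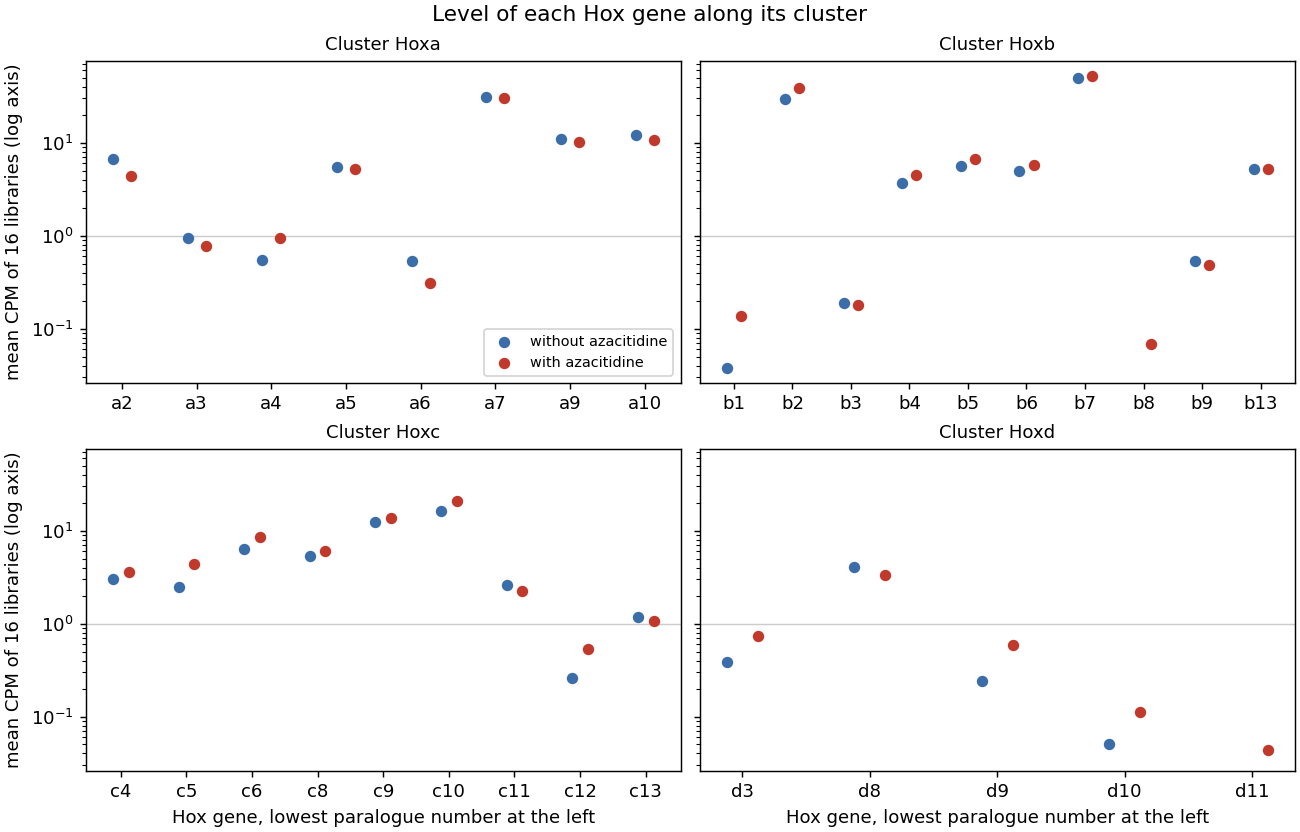
Mean CPM (log axis) of 32 of the 33 measured Hox genes over 16 libraries without (blue) and 16 with (red) azacitidine, in order of paralogue number within each cluster. Points of a gene lie close to each other, while neighbours such as Hoxb7 and Hoxb8 lie far apart. Hoxb8 and Hoxd11 have no blue point because they had 0 UMIs without azacitidine.

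Azacitidine was compared with no treatment in all genes, to ask how it alters transcription in the stroma. The default expression filter of edgeR kept 9344 genes, 11 of them Hox genes, and the other 22 were too low. Of these 11, 1 fell (Hoxa2) and 1 rose (Hoxc10) at an adjusted p under 0.05 (edgeR quasi-likelihood test, Benjamini-Hochberg over all tested genes), and 9 were not called. That is 18.2% of the 11, beside 5.65% of all tested genes (3.65% increased, 2% decreased). The median log2 fold change was 0.16 over the 11 and 0.001 over all tested genes. The ranges of the groups overlapped in each of the 33 members, of which 13 had a mean under 5 UMIs in both groups. The share of all genes with such overlap was not computed, so this is not a result about Hox genes. Without the 5 libraries that stood apart, and on the same 9344 genes, only Hoxc10 was called, beside 6.01% of all genes (3.93% increased, 2.09% decreased), and the median over the 11 was 0.02. With the filter redone on those 27 libraries 7 members were tested and 1, Hoxc10, was called, beside 6.08% of all genes (3.96% increased, 2.12% decreased). Without numbers 1 to 4 it was again 1 of 7, beside 6.27% (3.78% increased, 2.49% decreased). DESeq2, with 29 members tested, called Hoxa2, Hoxc5 and Hoxc10, beside 5.05% of all genes (3.74% increased, 1.31% decreased).

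Hoxa2 was lower with azacitidine. This anterior gene sets the identity of the second pharyngeal arch and of part of the hindbrain (ENSMUSG00000014704, chromosome 6, 52162417 to 52164831, minus strand, GRCm38). Without the drug its level ran from 2.3 CPM over a median of 6.7 to 11.2, and with it from 1.8 over 4.6 to 7.6. The ranges overlapped, but 15 of 16 libraries with azacitidine lay below the median of those without. Mean levels were 6.7 ± 2.0 and 4.4 ± 1.7 CPM, from 180 and 170 UMIs. The log2 fold change was -0.58 (SE 0.16, edgeR adjusted p = 0.027), or 0.671 of the level without the drug. As the labels name no batch, runs of 4 replicate numbers (1 to 4, 5 to 8, 9 to 12 and 13 to 16) were also looked at one by one. Values by run here and below are differences of mean log2 CPM, unless an edgeR fit is named. Hoxa2 was lower in each run, by -0.49, -0.98, -0.83 and -0.19. The edgeR fits within runs 1, 2 and 4 gave Hoxa2 -0.686, -0.794 and -0.158, and that of run 3 did not test it. The call was close to its limit. It was lost without the library of number 3 without azacitidine (edgeR, adjusted p = 0.056), which had the highest level, and without the 5 libraries that stood apart (-0.56, adjusted p = 0.078).

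Hoxa3, which lies next to Hoxa2, had 27 UMIs without and 30 with azacitidine (-0.30, SE 0.39, edgeR without the filter, adjusted p = 0.75). The difference between Hoxa2 and Hoxa3 was not tested. Of the exon bases of Hoxa2, 15.0% are shared with the read-through gene Gm28308 on the same strand.

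Hoxc10 was higher with azacitidine (ENSMUSG00000022484, chromosome 15, 102966796 to 102971893, plus strand, GRCm38). Its level ran from 13.7 CPM over a median of 15.6 to 24.4 without and from 14.1 over 19.4 to 36.1 with the drug. In 15 of 16 libraries with azacitidine it was above the median of those without, and 3 were above the highest of those without. Mean levels were 16.2 ± 2.5 and 20.9 ± 5.1 CPM, from 432 and 770 UMIs. The log2 fold change was 0.36 (SE 0.10, edgeR adjusted p = 0.024), a 1.28-fold increase. By run the difference of mean log2 CPM was 0.19, 0.54, 0.33 and 0.29. The gene was called whichever of the 32 libraries was left out (edgeR, adjusted p from 0.0066 to 0.04) and without the 5 libraries that stood apart (0.41, adjusted p = 0.022).

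Hoxc5, a central gene of the same cluster, rose as well, although it was below the default filter (ENSMUSG00000022485, chromosome 15, 102967443 to 103017429, plus strand, GRCm38). It ran from 0.6 CPM over a median of 2.2 to 4.8 without and from 2.4 over 4.2 to 7.1 with azacitidine. All 16 libraries with the drug lay above the median of those without, and 6 above the highest. The sums were 66 and 175 UMIs. In the fit without a filter the log2 fold change was 0.88 (SE 0.22, edgeR adjusted p = 0.0091), with 3.94% of 21822 genes called (3.29% increased, 0.651% decreased), a 1.84-fold increase. The difference of mean log2 CPM was 0.84, 1.10, 0.62 and 0.75 in the 4 runs. With a filter at a mean of 5 UMIs in either group it was 0.86 (edgeR, adjusted p = 0.0079) and 3 of 20 members were called, beside 6.17% of all genes (4.37% increased, 1.81% decreased), but Hoxc5 passed that filter only through the libraries with azacitidine, with a mean of 10.9 UMIs against 4.1. Under that filter, and so with the same limit, the value without the 5 libraries that stood apart was 0.80 (edgeR, adjusted p = 0.043).

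Hoxc5 and Hoxc10 are not independent in the annotation. Gene models of Hoxc5 start upstream within the Hoxc10 region, and the 2 genes share 166 exon bases on the same strand, 5.4% of the exon bases of Hoxc5 and 8.7% of those of Hoxc10. How reads of shared bases were assigned is not given in the sources used here. The genes between them were not called: Hoxc6 at 0.43 (SE 0.23), Hoxc8 at 0.16 (SE 0.20) and Hoxc9 at 0.18 (SE 0.16) on the log2 scale (edgeR, adjusted p = 0.35, 0.76 and 0.63). Hoxc8 stood at 5.3 ± 2.2 and 6.0 ± 2.4 CPM and Hoxc9 at 12.4 ± 3.5 and 13.7 ± 5.1. Outside that stretch, Hoxc4 had 82 and 133 UMIs (0.23, SE 0.21, edgeR without the filter, adjusted p = 0.63). Hoxc11 had 67 and 83 UMIs, at -0.19 (SE 0.24, edgeR without the filter, adjusted p = 0.77).

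**Figure D2:**
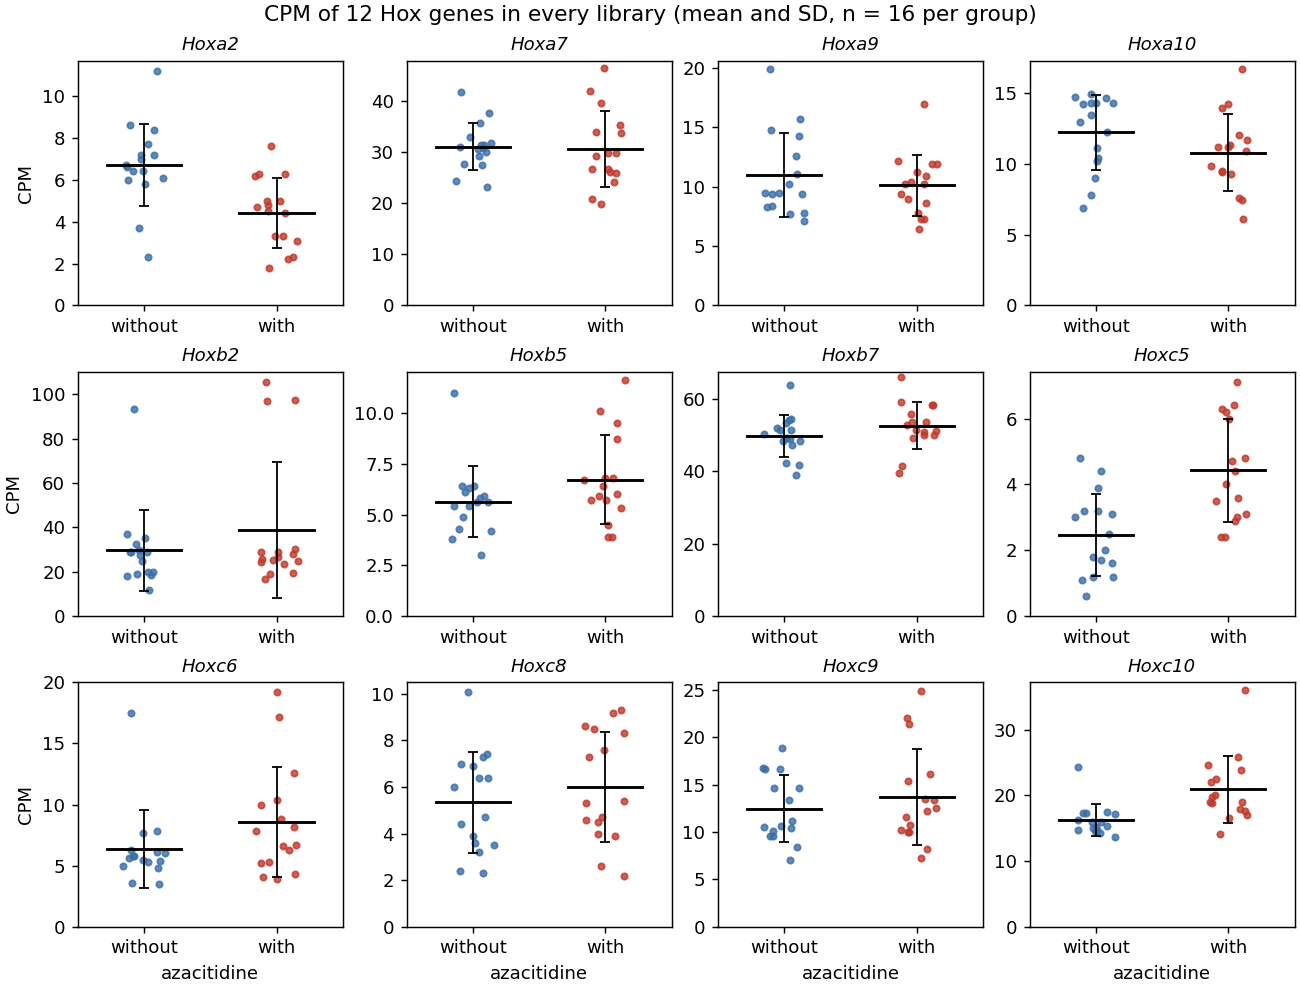
CPM (linear axes from 0) of the 11 tested Hox genes and Hoxc5 in each of 16 libraries without (blue) and 16 with (red) azacitidine; horizontal bars show means and whiskers 1 SD. Hoxa2 lies lower and Hoxc5 and Hoxc10 lie higher with the drug, with overlap in each, and 4 libraries of Hoxb2 lie between 93.5 and 105.3 CPM, far above the rest.

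**Figure D3:**
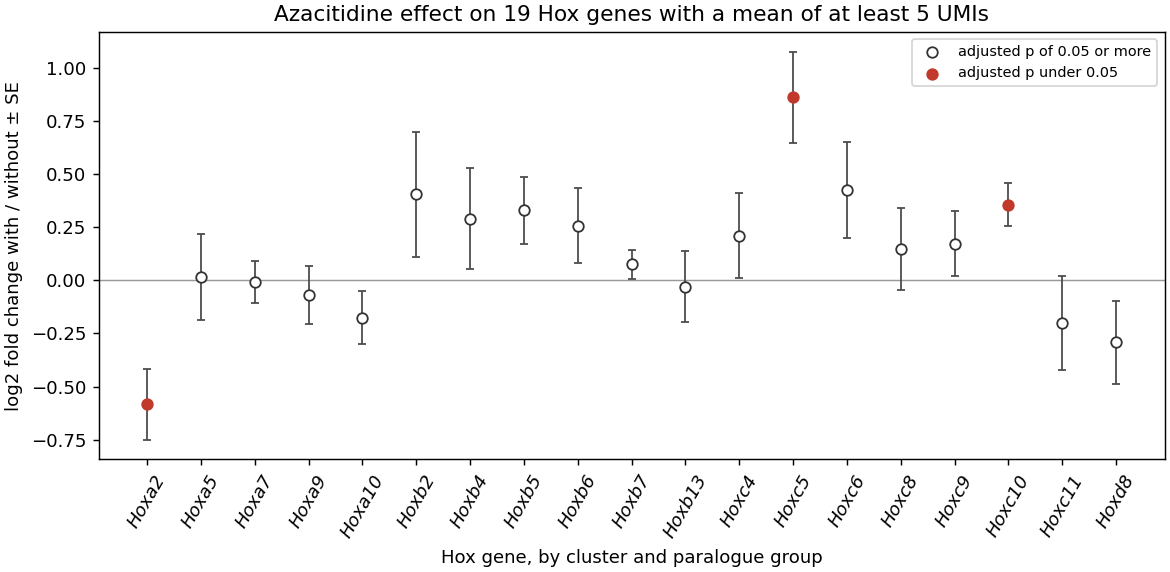
Log2 fold change (with over without azacitidine) and its SE for 19 of the 20 Hox genes that passed the edgeR filter at a mean of 5 UMIs, by cluster and paralogue number. The 3 filled points, Hoxa2, Hoxc5 and Hoxc10, had an adjusted p under 0.05, and the other 16 shown did not. Hoxc5 passed this filter only through the libraries with azacitidine.

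The most abundant members stayed within the spread of the libraries. Hoxb7 ran from 38.9 CPM over a median of 49.8 to 63.8 without and from 39.5 over 52.0 to 66.1 with azacitidine, and its log2 fold change was 0.08 (SE 0.07, edgeR adjusted p = 0.59). Hoxa7 ran from 23.1 over 30.9 to 41.7 and from 19.9 over 29.4 to 46.4 CPM, and its log2 fold change was -0.003 (SE 0.10, edgeR adjusted p = 1). With TMM the small errors bound any change of these paralogues more tightly than that of the low genes. Scaled by spike-in RNA, Hoxb7 was at 0.395 (SE 0.205) and Hoxa7 at 0.309 (SE 0.208) (edgeR, adjusted p = 0.22 and 0.28). The median over all tested genes was then 0.314. The posterior genes Hoxa9 and Hoxa10, both known for their part in blood progenitors and leukaemia, stood at 11.0 ± 3.6 and 10.1 ± 2.6 CPM and at 12.2 ± 2.6 and 10.8 ± 2.7. Their log2 fold changes were -0.06 (SE 0.135) and -0.17 (SE 0.12) (edgeR, adjusted p = 0.88 and 0.53). Hoxa10 was lower in each of the 4 runs, by between -0.33 and -0.08 in mean log2 CPM. Hoxb5, a central gene, stood at 5.6 ± 1.7 and 6.7 ± 2.2 CPM, a log2 fold change of 0.34 (SE 0.155) with an unadjusted p = 0.034 and an adjusted p = 0.23 (edgeR), and at 0.16 (SE 0.17) without the 5 libraries.

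Hoxb2 varied between libraries more than any other tested member. It stood at 93.5 CPM in number 1 without and at 97.6, 105.3 and 96.9 CPM in numbers 1, 2 and 4 with azacitidine, while the highest of the 27 libraries that did not stand apart was 37.2. Number 2 without azacitidine, the remaining library of the 5, was at 28.8 CPM. These high libraries are of both groups. The spread within groups was 44.34 times that of counting alone (chi-square per degree of freedom), more than in 96.7% of tested genes, against a median of 2.23. The log2 fold change of 0.41 (SE 0.30, edgeR adjusted p = 0.53) became -0.04 (SE 0.12, edgeR adjusted p = 0.92) without the 5 libraries. By run the difference of mean log2 CPM was 1.15, 0.01, -0.22 and 0.10. The edgeR log2 fold changes fitted within the runs were 0.858, 0.091, -0.315 and 0.147. The interaction of run and azacitidine was not called (edgeR, adjusted p = 0.62). Among the libraries that did not stand apart the medians were 26.2 and 25.4 CPM.

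Some other members were high in the same libraries. Hoxc6 stood at 17.5 CPM in number 1 without and at 12.6, 19.2 and 17.2 in numbers 1, 2 and 4 with azacitidine, above the highest of the other 27, which was 10.4. Number 2 without azacitidine was at 5.6. Hoxc6 was called once, without number 1 of the libraries without azacitidine (0.68, edgeR adjusted p = 0.049), and fell to 0.21 (edgeR, adjusted p = 0.61) without all 5. In Hoxc9 all 5 libraries, at 16.8, 18.9, 21.4, 22.0 and 24.9 CPM, were above the highest of the others at 16.7. In Hoxa2, Hoxa7, Hoxa9, Hoxa10, Hoxb5, Hoxb7 and Hoxc10 none of the 5 was above the highest of the others. The part that depth or the cultures play in this was not tested. The antisense gene Hoxb3os covers 27.3% of the exon bases of Hoxb2 on the opposite strand, and strand use in counting is not given in the sources used here. Hoxb3os itself ran from 4.2 to 9.6 CPM without and from 3.1 to 12.9 with azacitidine.

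**Figure D4:**
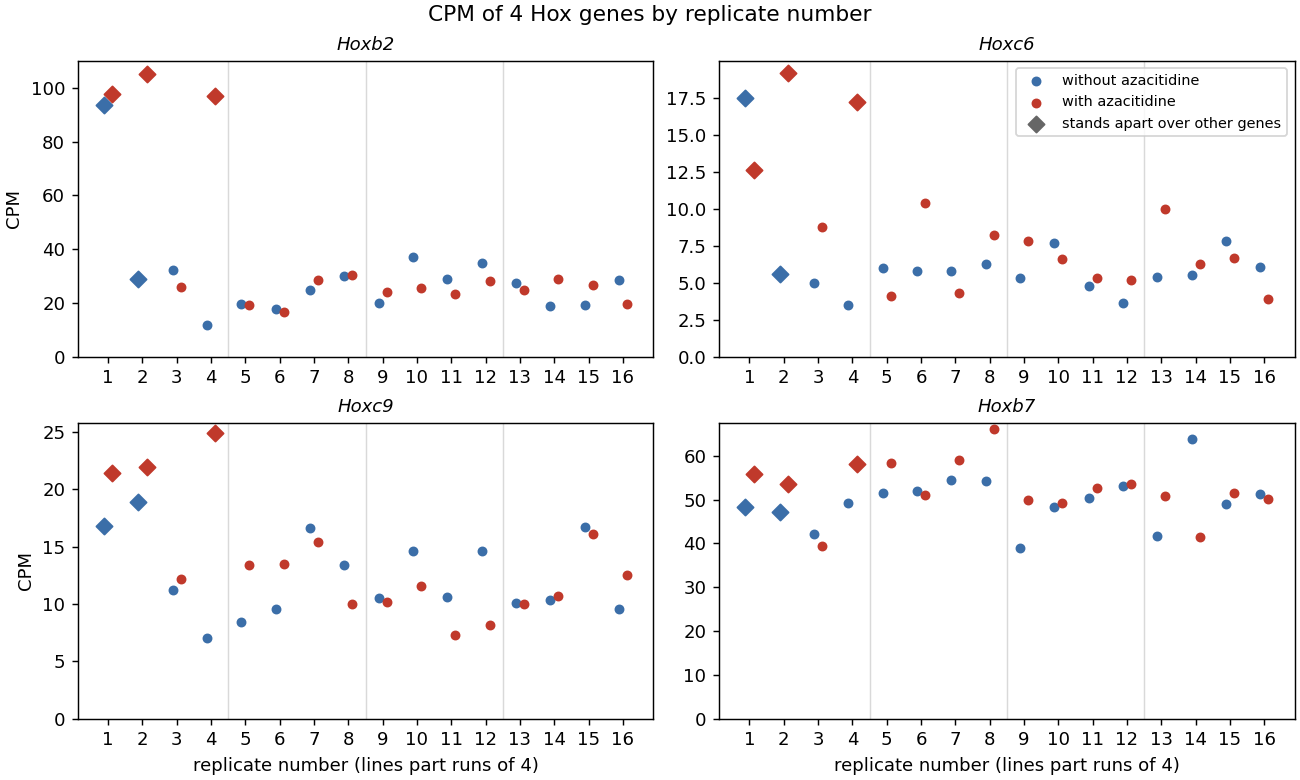
CPM (linear axes from 0) of Hoxb2, Hoxc6, Hoxc9 and Hoxb7 by replicate number, without (blue) and with (red) azacitidine; diamonds mark the 5 libraries that stand apart over other genes and lines part the runs of 4. Hoxb2 and Hoxc6 are high in 4 of the diamonds and Hoxc9 in 5, in both groups, while Hoxb7 is not.

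The other tested members differed in how far they spread beyond counting. The within-group spread was 0.96 times that of counting alone for Hoxa2, 1.15 for Hoxa10, 1.17 for Hoxb5 and 1.37 for Hoxa9 and Hoxb7. For Hoxc10 it was 1.54, for Hoxc8 1.8, for Hoxa7 2.4, for Hoxc9 3.16 and for Hoxc6 5.22. Hoxa2 was thus measured with about the precision that 180 and 170 UMIs allow, while Hoxc6 and Hoxb2 were limited by differences between libraries. No member of the 11 was called for a difference of the azacitidine effect between the 4 runs (edgeR interaction test, 3.02% of all genes called), and 1, Hoxa7, had an unadjusted p under 0.05 (p = 0.03, adjusted p = 0.28).

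Members with the fewest molecules gave no call. In 13 members the mean was under 5 UMIs in both groups: Hoxa3, Hoxa4, Hoxa6, Hoxb1, Hoxb3, Hoxb8, Hoxb9, Hoxc12, Hoxc13, Hoxd3, Hoxd9, Hoxd10 and Hoxd11. Hoxd3, an anterior gene of the spine, had 9 UMIs in 6 libraries without and 30 in 12 libraries with azacitidine, a log2 fold change of 1.09 (SE 0.51, edgeR without the filter, adjusted p = 0.32). Hoxd9 had 6 UMIs in 5 and 21 in 8 libraries (1.11, SE 0.60, edgeR without the filter, adjusted p = 0.42). Hoxc12 had 9 in 5 and 21 in 11, and Hoxa4 had 15 in 9 and 34 in 14 libraries. Hoxa6 had 15 UMIs in both groups, Hoxb9 had 13 and 17, Hoxc13 had 32 and 37, and Hoxb3 had 5 and 9. Since the summed totals were 27338586 UMIs without and 38348576 with azacitidine, equal levels would give more UMIs with the drug. In the fit without the filter 23 of the 33 members had a positive and 10 a negative log2 fold change, while 57.4% of all genes were positive, and 2 rose and 1 fell, as above.

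Of the members between the filters, the central genes Hoxa5, Hoxb4, Hoxb6 and Hoxd8 were not called without the filter. Hoxa5, known from lung and limb patterning, stood at 5.4 ± 1.9 and 5.2 ± 2.7 CPM. Hoxb4, a gene known to expand blood stem cells when overexpressed, stood at 3.7 ± 1.8 and 4.5 ± 2.2. Hoxb6 stood at 4.9 ± 1.9 and 5.8 ± 1.9, and Hoxd8 at 4.0 ± 1.7 and 3.3 ± 1.1 CPM. Their log2 fold changes were 0.03 (SE 0.20), 0.31 (SE 0.23), 0.27 (SE 0.18) and -0.28 (SE 0.20), with edgeR adjusted p = 0.96, 0.59, 0.56 and 0.58. The ranges of the groups overlapped in each, as in all 33 members, and the share over all genes was not computed.

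Genes that work with or on the Hox clusters were taken from lists. Of 9 TALE cofactors (PBX, MEIS and PKNOX proteins, which bind DNA together with HOX proteins) 6 were tested. Their median log2 fold change was -0.15 and 1 fell, beside 2% of all tested genes decreased. It was Meis1, which ran from 35.0 CPM over a median of 43.8 to 57.4 without and from 18.0 over 32.7 to 48.1 with azacitidine. Its log2 fold change was -0.34 (SE 0.09, edgeR adjusted p = 0.019), and -0.35 (adjusted p = 0.03) without the 5 libraries. Of 18 genes of the retinoic acid pathway, a known activator of anterior Hox genes, 9 were tested and 2 rose, or 1 without the 5 libraries that stood apart, with a median of 0.08 and beside 3.65% of all tested genes increased. Crabp2, which carries retinoic acid to its receptors in the nucleus, went from 22.5 ± 6.3 to 46.2 ± 10.7 CPM (1.04, SE 0.13, edgeR adjusted p = 2.5e-07). Dhrs3, which reduces retinaldehyde, went from 16.6 ± 5.3 to 22.7 ± 7.0 CPM (0.50, SE 0.15, edgeR adjusted p = 0.037) and was not called without the 5 libraries (0.36, adjusted p = 0.16).

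The Polycomb list gave no call. Of its 31 genes 19 were tested and 0 were called by edgeR, beside 5.65% of all tested genes. Their median log2 fold change was 0.07, and 2 had an unadjusted p under 0.05. Neither limma-voom (0 of 19) nor DESeq2 (0 of 31) called a Polycomb gene. Of 13 genes of Trithorax and other regulators of the clusters 12 were tested. Their median was -0.07 and 1 rose, beside 3.65% of all tested genes increased. It was Ash2l, a subunit of complexes that methylate histone H3 at active genes, which went from 34.4 ± 9.6 to 58.8 ± 12.6 CPM (0.77, SE 0.11, edgeR adjusted p = 8.2e-06). Of 18 noncoding RNAs of the Hox clusters 8 had a row and 1 was tested, Hoxb3os, at 6.5 ± 1.5 and 6.4 ± 2.4 CPM (-0.07, SE 0.16, edgeR adjusted p = 0.90). Hotair, transcribed from the Hoxc cluster, had 20 UMIs without and 37 with azacitidine. Of 10 ParaHox and linked genes 2 had a row, Cdx1 with 3 and 2 UMIs in the respective groups and Meox1 with 6 in both.

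Markers of other cell types moved with azacitidine beside these genes. The 6 blood markers summed to between 11.3 and 29.1 CPM without and between 26.0 and 43.6 with the drug, of which Cd34 and Cd68 rose, while Itgam, under the filter, was at 5.6 ± 2.4 and 4.5 ± 2.3 CPM. The 4 measured of 5 epithelial and liver markers summed to between 0.0 and 7.7 without and between 4.9 and 19.0 with it, of which Krt19 rose, while Epcam had 0 and 1 UMIs. The 3 measured of 4 endothelial markers summed to at most 1.1 and 3.0 CPM. Their part in the Hox results was not tested.

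Scaling changed what could be called. When libraries were scaled by their spike-in RNA, the median of all tested genes moved by 0.31 on the log2 scale, and 354 genes rose and 1 fell (3.8% called, 3.79% increased and 0.0107% decreased), beside 341 and 187 with TMM. Hoxa2 was then at -0.26 (edgeR, adjusted p = 0.41) and Hoxc10 at 0.65 (adjusted p = 0.071), so that edgeR called 0 of the 11 members, although 4 had an unadjusted p under 0.05. Hoxc5 was at 1.23 (edgeR, adjusted p = 0.0023) under the filter at 5 UMIs, which it passed only through the libraries with azacitidine, and Meis1 at -0.01 (adjusted p = 0.97). The falls of Hoxa2 and Meis1 were called relative to the other genes only, not to the spike-ins. When UMIs were added up within runs, leaving 4 values a group, Hoxa2 was at -0.57 (edgeR, adjusted p = 0.51) and Hoxc10 at 0.35 (adjusted p = 0.55). A run term in that fit gave -0.59 (edgeR, adjusted p = 0.10) and 0.34 (adjusted p = 0.13), and 3.26% of all genes were called (2.56% increased, 0.7% decreased). Hoxc5 was not called with the sums (0.89, edgeR adjusted p = 0.094) and was called with the run term (0.90, adjusted p = 0.035).

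**Figure D5:**
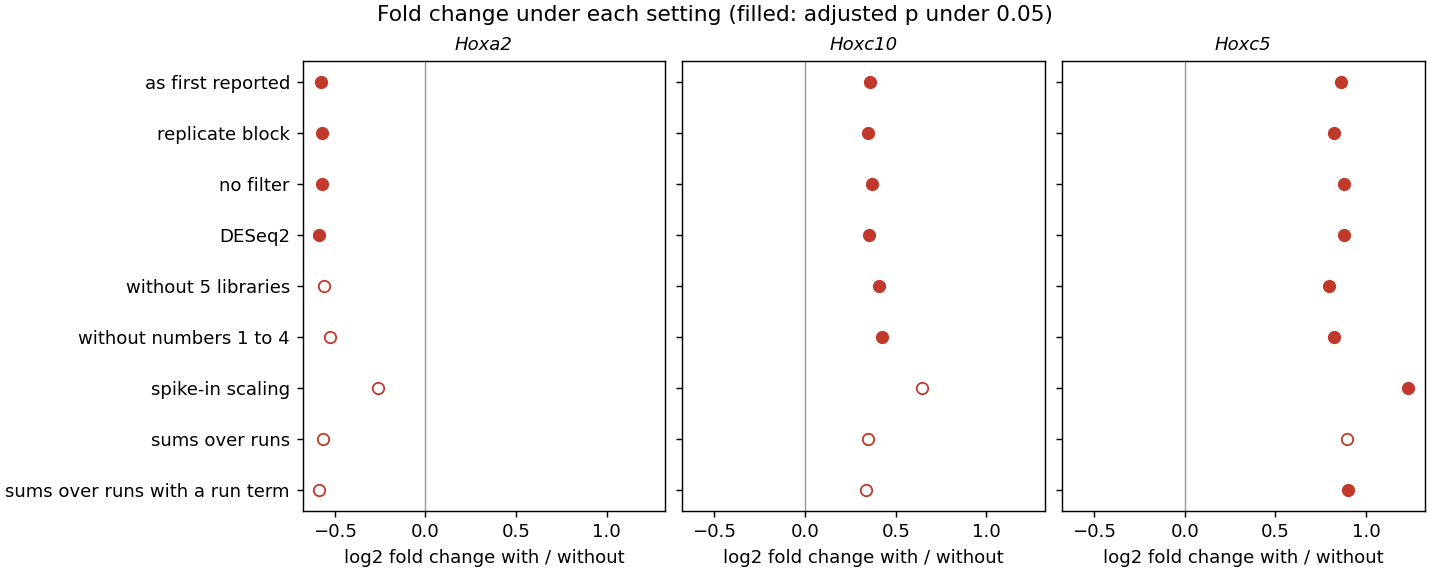
Log2 fold change (with over without azacitidine) of Hoxa2, Hoxc10 and Hoxc5 under 9 settings; filled points had an adjusted p under 0.05. Hoxc5, fitted with the filter at 5 UMIs in the first setting and in those with the block, left-out libraries and spike-ins, is filled in all but the sums over runs. Hoxc5 passed that filter only through the libraries with azacitidine, so its filled points there are not to be weighed against those of the other 2 genes. Hoxc10 is open with spike-in scaling and both kinds of sums, and Hoxa2 is also open without the 5 libraries and without numbers 1 to 4.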

How the data were processed

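Per the labels' protocols, total RNA was made into cDNA, barcoded, pooled and pre-amplified with UMIs, and a transposase kit gave the libraries. STAR 2.4.0, bedtools 2.17.0 and the build mm10 were used, per the submitters' processing notes. The deposited values are counts of UMIs per gene and library; the annotation, the collapsing of UMIs and the use of strand are not given in the sources used here. The 68 spike-in rows of 21897 (0.106% of UMIs) stayed out of tests and library sizes. Symbols and positions came from GENCODE M21 (GRCm38), matching 21506 of 21829 mouse genes.

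The test was edgeR 4.0.16 (R 4.3.3), robust quasi-likelihood, TMM, default filter (9344 genes, 98.8% of counts), two-sided, with Benjamini-Hochberg adjusted p under 0.05. SEs are the fold change over the root of F. DESeq2 1.42.0 and limma 3.58.1 were alternatives. The edgeR fit was also tried on simulated independent counts, with the same spread beyond counting for all genes. The simulation held neither runs nor libraries that stood apart, so it gives no error rate for data that have them.

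Members and lists were chosen with earlier results of these data known. Members with a row are named, except 1 that is counted but not reported here; of other lists, up to 4 called genes. Other listed genes, the 5 libraries that stood apart and the runs were chosen after values were seen. Added after seeing the data were the fits on the same genes, those around Hoxc5 and leaving out each library. The lowest chi-square per gene of a library pair was 1.15 without and 1.13 with azacitidine. Counting error alone would give about 1, so this check could not tell technical repeats from separate cultures.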

Additional observations from a re-analysis of the deposited data

How the results depend on the processing

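Of all tested genes 528 were called. The count was 897 with the replicate block, 993 with a run term, 860 without the filter, 845 with DESeq2, 254 after thinning (309 on the same genes), 108 with sums over runs, 267, 610, 117 and 368 within the 4 runs, and 296 at an adjusted p under 0.01. Of the 11 tested members 2 were called. The count was 1 without the 5 libraries or without numbers 1 to 4 (also on the same genes) and with sums and a run term, and 0 with sums alone, spike-in scaling, thinning, within each run or at an adjusted p under 0.01 (edgeR; at an unadjusted p under 0.05 there were 4 with sums, 4 with spike-in scaling, 1 after thinning, or 3 on the same genes, and 2, 2, 0 and 0 within the runs). The number of members tested differed between these fits, so a count of 0 is not always 0 of 11. It was 7 without the 5 libraries or without numbers 1 to 4 (11 on the same genes). With sums of either kind it was 20 of 12281 genes. After thinning it was 4 of 7242 genes (11 on the same genes), and Hoxa2 was not among the 4. Within the runs it was 15, 10, 7 and 9, of 10652, 9236, 8886 and 9381 genes, and run 3 did not test Hoxa2. Leaving out 1 library gave 455 to 556 called genes and 1 to 3 called members. Same-numbered libraries correlated with a median of 0.18 (-0.007 for other numbers; range -0.28 to 0.82, over 0.1 in 12 of 16 pairs, best with their own number both ways in 2). As 4 pairs were not over 0.1, the numbers were not taken as pairing, a choice that does not show the libraries to be unpaired. The replicate block called the same 2 members. No alternative gave Hoxa2, Hoxc5 or Hoxc10 the other sign. Signs of uncalled members turned as follows in the log2 fold changes of edgeR fits, including those within runs. Hoxa7 was 0.005 with library totals, 0.006 without the filter, 0.309 with spike-ins, 0.089 thinned (0.084 on the same genes) and 0.31 in run 1. Hoxa9 was 0.251 with spike-ins, 0.019 (0.018) without numbers 1 to 4, 0.275 in run 2 and 0.071 thinned. Hoxa10 was 0.151 with spike-ins. Hoxb2 was -0.035 (-0.036) without the 5 libraries, -0.053 (-0.054) without numbers 1 to 4 and -0.315 in run 3. Hoxc9 was -0.021 (-0.022) without numbers 1 to 4 and -0.436 in run 3, Hoxc8 -0.389 in run 2 and Hoxb7 -0.096 in run 4. Leaving out 1 library moved Hoxa7 between -0.05 and 0.03. The cause was not tested. Members under the default filter had the fewest UMIs.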
